A study of Mus musculus with 6 samples.

Results

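The genes of cholesterol synthesis and its control by SREBP were followed in mouse macrophages exposed to medium from tumour cells. The 29 genes were taken by symbol from the 55421 genes of the deposited count table: 19 enzymes of the mevalonate and sterol pathway, 7 genes of the SREBP machinery and 3 genes of sterol transport and storage. All 29 were found, and all 29 had enough counts to be tested, among 13853 tested genes. The conditioned-medium group was 3 wells of wild-type bone marrow-derived macrophages kept for 24 h in a mixture of equal volumes (50% each) of RPMI-1640 culture medium and medium taken from LL-2 cells, a mouse Lewis lung carcinoma line. The untreated group was 3 wells of the same cells kept for 24 h in RPMI-1640 alone. In both groups the RPMI-1640 held 20 ng/mL M-CSF, the growth factor that makes macrophages from marrow cells, together with 10% FBS (serum) and 1% penicillin/streptomycin. Medium conditioned by other cells was not analysed here, and the mixture also held less fresh medium, so tumour-cell products, conditioning as such and a lower share of fresh medium cannot be told apart. No label names separate animals or cultures behind the wells. The p-values given here thus reflect well-to-well spread, and that spread may be technical.

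Cells make cholesterol from acetyl-CoA, first through mevalonate to the isoprenoid farnesyl diphosphate, then through squalene and lanosterol, and last through a series of reactions on the sterol ring. When membrane sterol is low, the membrane-bound SREBP precursors are carried by the escort protein SCAP from the endoplasmic reticulum to the Golgi, are cut there by the proteases encoded by Mbtps1 and Mbtps2, and switch on most genes of the pathway. INSIG proteins hold SCAP back when sterol is plentiful. Macrophages also take up cholesterol with the particles and dead cells they engulf, store it as esters and export it.

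SREBP binds sterol regulatory elements in promoters, usually beside sites for the factors NF-Y and Sp1. The upstream 250 bases of 4 genes are given here because the results turn on them. Hmgcs1 and Pmvk are the mevalonate-arm genes that rose in conditioned medium, Mvd is a gene of that arm called with the replicate block but not without it, and Soat1 is the member that fell. The sequences are from RefSeq on GRCm38.p6, 5′ to 3′ on the strand of the gene. Capitals mark TCACNCCAC, the sterol regulatory element searched for, and CCAAT, the core of the NF-Y site, on either strand, so that ATTGG is CCAAT on the opposite strand.
Hmgcs1 chr13:119690101-119690350, plus strand: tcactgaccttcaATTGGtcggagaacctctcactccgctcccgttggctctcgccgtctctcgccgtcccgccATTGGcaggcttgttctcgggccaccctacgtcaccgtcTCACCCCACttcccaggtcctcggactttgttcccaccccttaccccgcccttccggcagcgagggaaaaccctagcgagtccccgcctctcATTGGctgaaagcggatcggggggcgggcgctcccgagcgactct
Pmvk chr3:89454291-89454540, plus strand: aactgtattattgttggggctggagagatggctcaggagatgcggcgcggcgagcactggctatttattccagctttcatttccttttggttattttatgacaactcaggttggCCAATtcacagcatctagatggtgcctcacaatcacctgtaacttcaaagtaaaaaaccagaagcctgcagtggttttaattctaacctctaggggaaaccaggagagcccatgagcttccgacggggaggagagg
Mvd chr8:122443423-122443672, minus strand: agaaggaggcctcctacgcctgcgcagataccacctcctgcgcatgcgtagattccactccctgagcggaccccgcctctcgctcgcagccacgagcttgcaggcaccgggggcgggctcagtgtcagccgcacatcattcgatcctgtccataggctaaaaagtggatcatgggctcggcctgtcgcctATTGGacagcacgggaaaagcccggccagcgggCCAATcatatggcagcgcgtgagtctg
Soat1 chr1:156474329-156474578, minus strand: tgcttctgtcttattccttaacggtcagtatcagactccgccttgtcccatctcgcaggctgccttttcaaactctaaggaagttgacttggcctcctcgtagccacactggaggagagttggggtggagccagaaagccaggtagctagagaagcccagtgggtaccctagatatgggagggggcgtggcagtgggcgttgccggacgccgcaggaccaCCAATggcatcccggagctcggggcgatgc
In the Hmgcs1 sequence the element TCACCCCAC began 137 bases before the start, and CCAAT was read on the opposite strand at 3 places, 237, 176 and 45 bases before the start. None of the capitals overlap one another. For Pmvk the window at the table's gene start is printed. RefSeq gives another start 5030 bases further on, whose window held no exact match to any motif searched. Which start of Pmvk these cells used was not tested, and the windows may miss the promoter in use. A promoter window of 300 bases, 250 before and 50 after the start, was given for 25 of the 29 genes. Fdft1, Fdps, Sqle and Stard4 had none. An exact TCACNCCAC was found on either strand for 1 of the 25 genes, Hmgcs1 (4%), against 1.38% of the tested genes with a window. CCAAT was found for 21 of 25 (84%), against 42.8% of tested genes. The Sp1 core GGGCGG was found for 22 of 25 (88%), against 67.0% of tested genes, and CACGTG, an E-box, for 5 of 25 (20%), against 11.7%. The median GC content of the windows was 62% for these genes and 60.3% for tested genes. These matches describe letters in the windows and not sites used in these cells.

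The libraries held 28447825 to 30040682 counts in conditioned medium and 24179548 to 25916709 counts in untreated wells. Levels are given as CPM, counts scaled to the library total and the TMM factor. Markers are said to rise or fall at an adjusted p under 0.05 in edgeR's test on the group alone. By that test 12.6% of all tested genes rose and 15.2% fell. Lyz2, Csf1r and the other 5 macrophage markers were all detected, with summed levels of 56691 to 61271 CPM in conditioned medium and 50530 to 59722 CPM in untreated wells, and 3 of the 7 rose and 3 fell. Markers of dividing cells summed to 132 to 152 CPM in conditioned medium and 170 to 239 CPM in untreated wells, and 6 of the 7 fell. Mast cell and basophil markers summed to 4.78 to 9.10 CPM in conditioned medium and 13.5 to 16.5 CPM in untreated wells, and all 5 that were tested fell. Dendritic cell markers summed to 7.92 to 11.3 CPM in conditioned medium and 15.4 to 20.4 CPM in untreated wells, and 2 of the 4 tested fell. Neutrophil markers summed to 484 to 563 CPM in conditioned medium and 402 to 597 CPM in untreated wells. Of the 8, 0 rose and 2 fell, or 4 rose and 3 fell when the replicate number entered the model as a block. With that block 17% of all tested genes rose and 19.3% fell. Endothelial markers summed to 15.7 to 21.1 CPM in conditioned medium and 27.1 to 33.8 CPM in untreated wells. Of the 3 endothelial markers tested Kdr fell, at 12.0, 13.0 and 11.9 CPM in conditioned-medium wells against 23.5, 30.2 and 25.8 CPM in untreated wells, Cdh5 rose 3.49-fold and Tie1 was not called. Markers of B cells, T cells and epithelial cells each summed to at most 6.44 CPM in every well, and no marker was at 0 in all 6 libraries. Of the 4 B cell markers 1 fell, Ms4a1. The part of these other cells in the sterol results was not tested. In RNA from whole wells, a change in the number of cells of a type and a change in RNA per cell cannot be told apart.

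How many sterol genes were called depended on whether the wells were treated as pairs: 4 of 29 with the group alone, and 11 of 29 with the replicate number as a block. By edgeR's quasi-likelihood test on the group alone, with an adjusted p under 0.05, 3 of 29 genes rose (10.3%): Hmgcs1, Pmvk and Stard4. By the same test 12.6% of all tested genes rose. The member that fell was Soat1 (1 of 29, 3.45%), where 15.2% of all tested genes fell. In either direction 13.8% of the members were called, against 27.9% of all tested genes. Wells that carry the same replicate number in the 2 groups deviated together, and when the replicate number entered the model as a block, 9 genes were called higher (31.0%) and 2 lower (6.90%), or 37.9% in either direction. With the block, 17% of all tested genes were higher, 19.3% lower and 36.3% called in all. The block added Mvd, Fdft1, Sqle, Nsdhl, Hsd17b7 and Insig1 to the higher genes and Dhcr7 to the lower ones. The median log2 fold change of the 29 genes was 0.10, against 0.01 for all tested genes. The fold change was above 0 for 23 of the 29 genes (79.3%) and for 51.9% of all tested genes. In 6 genes every conditioned-medium well lay above every untreated well (20.7%), and in Soat1 every one lay below (3.45%), against 21.2% and 21.6% of all tested genes. Without untreated replicate 1, Pmvk alone was called, when 2990 of 14293 genes tested were called. Without untreated replicate 2, Pmvk was called higher and Dhcr7 lower, when 2725 of 14306 genes tested were called.

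**Figure D1:**
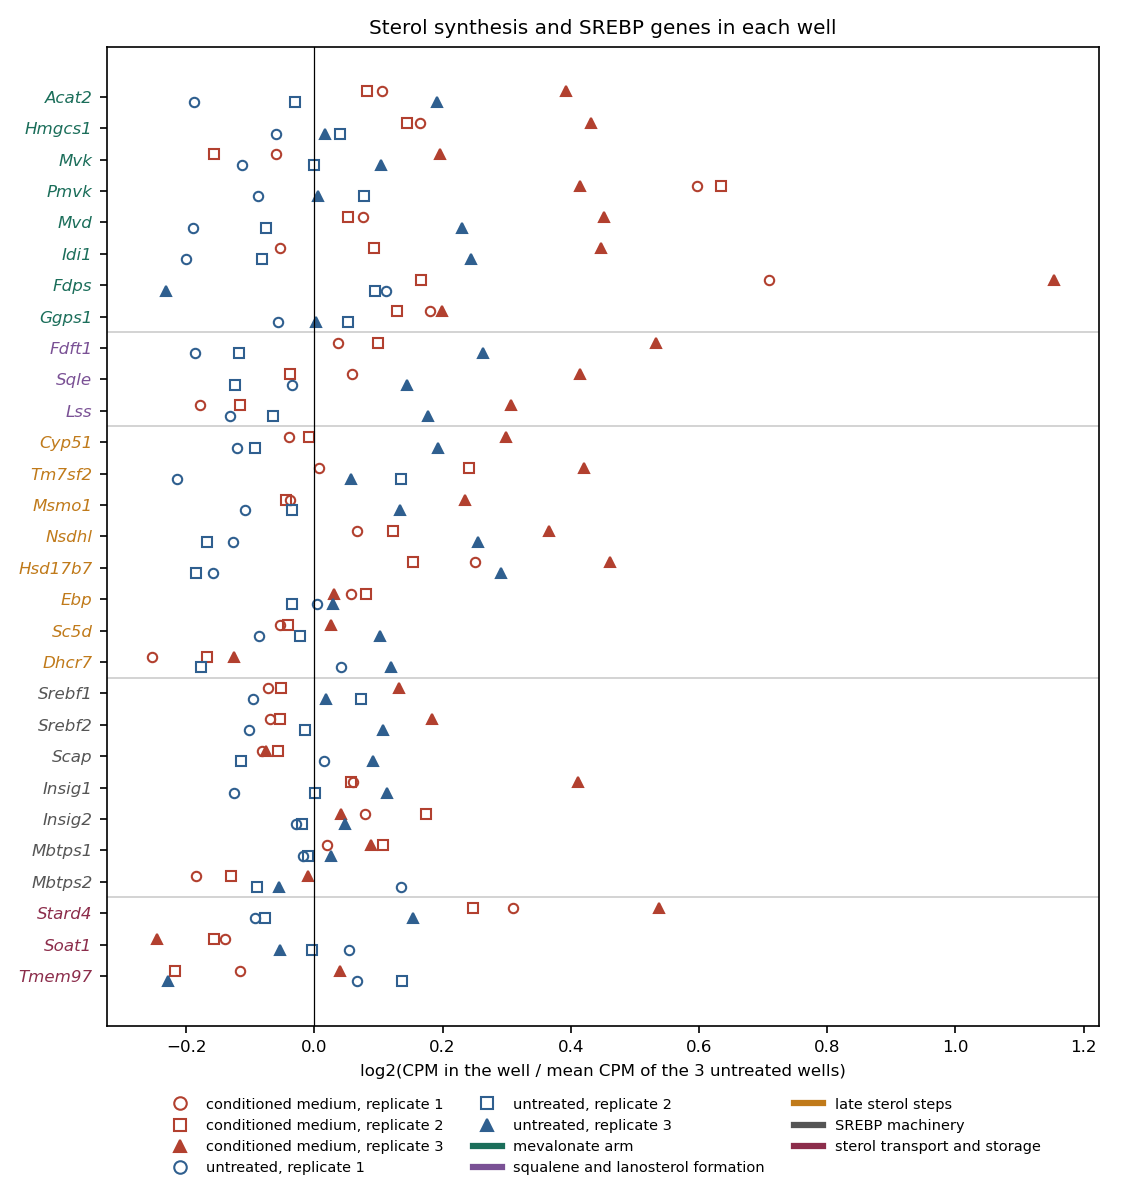
Level of each of the 29 genes in each well, as log2 of the CPM in the well over the mean CPM of the 3 untreated wells, with conditioned-medium wells in red and untreated wells in blue and a marker shape for each replicate number. Hmgcs1, Pmvk, Fdps, Ggps1, Ebp and Stard4 have all 3 red points right of all 3 blue ones, in Ebp by very little. Soat1 shows them left. In most enzyme rows the triangles of replicate 3 are the points farthest right in both colours.

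The mevalonate arm held both enzyme genes that rose without the block. With the block, 3 of its 8 genes were higher, against 17% of all tested genes. Of the 11 enzymes after farnesyl diphosphate, 4 were then higher and 1 lower. Pmvk (ENSMUSG00000027952, GRCm38 chr3:89454541-89469013, plus strand) encodes phosphomevalonate kinase, which adds the second phosphate to mevalonate. Pmvk had 20.9, 21.4 and 18.4 CPM in the conditioned-medium wells, against 13.0, 14.6 and 13.9 CPM in untreated wells. The groups lay far apart, with the lowest conditioned-medium well well above the highest untreated well. The level rose 1.47-fold (log2 fold change 0.55 ± 0.0814 SE, edgeR adjusted p = 0.000957), with log2 ratios of 0.68, 0.56 and 0.41 in the pairs of wells numbered 1, 2 and 3. Pmvk passed the threshold in each of the 14 alternative settings tried, with log2 fold changes of 0.50 to 0.62.

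Hmgcs1 (ENSMUSG00000093930, chr13:119690379-119708260, plus strand) encodes the cytosolic HMG-CoA synthase, which makes the precursor of mevalonate. Hmgcs1 had 62.6, 61.7 and 75.3 CPM in the conditioned-medium wells, against 53.6, 57.4 and 56.5 CPM in untreated wells. The wells did not overlap, and conditioned-medium replicate 3 stood above the other two. The level rose 1.19-fold (log2 fold change 0.25 ± 0.0765 SE, edgeR adjusted p = 0.0358). With the replicate block the log2 fold change was 0.25 ± 0.0556 SE (adjusted p = 0.00245). Without the block, the call was lost when any of 4 libraries was left out. The adjusted p was 0.118, 0.0767 and 0.0645 when untreated replicate 1, 2 or 3 was dropped. It was 0.0535 when conditioned-medium replicate 3 was dropped. In the last case the log2 fold change was 0.15, and untreated replicate 3 was kept without its pair.

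Mvd encodes mevalonate diphosphate decarboxylase, the enzyme that makes isopentenyl diphosphate. Mvd had 48.2, 47.3 and 62.4 CPM in the conditioned-medium wells, against 40.1, 43.4 and 53.6 CPM in untreated wells. Replicate 3 was the highest well of each group, and untreated replicate 3 lay above the other 2 conditioned-medium wells. The log2 fold change was 0.20 ± 0.127 SE (edgeR adjusted p = 0.275), and with the replicate block 0.20 ± 0.0489 SE (adjusted p = 0.00402). Within pairs the log2 ratio was 0.27, 0.13 and 0.22.

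None of the other 5 genes of the arm was called with or without the block. Fdps, farnesyl diphosphate synthase, had the largest fold change of all members and the lowest level: 1.77, 1.21 and 2.41 CPM in conditioned-medium wells, against 1.17, 1.16 and 0.922 CPM in untreated wells. Its groups did not overlap, but conditioned-medium replicate 2 was close to the untreated wells, and the log2 fold change was 0.73 ± 0.292 SE (edgeR adjusted p = 0.0967, 0.0658 with the block). Without conditioned-medium replicate 2 the log2 fold change was 0.94 and Fdps was called (adjusted p = 0.0403). Without conditioned-medium replicate 3 the log2 fold change was 0.46 (adjusted p = 0.308). Fdps shares 26.7% of its exon bases with Gm43738, a gene on the same strand with 0 counts. How reads of this stretch were counted is not known, so the level of Fdps is uncertain. Ggps1, which makes the geranylgeranyl diphosphate used to prenylate small GTPases, had 22.5 to 23.6 CPM in conditioned medium and 19.8 to 21.3 CPM in untreated wells, a log2 fold change of 0.17 (adjusted p = 0.0611). Acat2, the cytosolic thiolase that opens the pathway, averaged 10.1 ± 1.25 CPM in conditioned medium and 8.81 ± 1.17 CPM in untreated wells (SD, n = 3 each). Idi1, isopentenyl diphosphate isomerase, averaged 19.1 ± 3.51 CPM in conditioned medium and 16.9 ± 2.76 CPM in untreated wells. Mvk, mevalonate kinase, averaged 13.9 ± 1.80 CPM in conditioned medium and 13.9 ± 1.04 CPM in untreated wells, with a 95% interval of -0.24 to 0.24 for the log2 fold change. Over the 8 genes of the arm, 2 rose without the block, where 12.6% of all tested genes rose. The median log2 fold change of the arm was 0.20.

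The 3 genes that turn farnesyl diphosphate into lanosterol were not called without the block. Fdft1, squalene synthase, had 19.7, 20.6 and 27.7 CPM in conditioned-medium wells, against 16.9, 17.7 and 23.0 CPM in untreated wells. Its groups overlapped because untreated replicate 3 lay above the conditioned-medium wells numbered 1 and 2, although each conditioned-medium well lay above the untreated well of the same number. The log2 fold change was 0.24 ± 0.151 SE (edgeR adjusted p = 0.282), and 0.24 ± 0.0633 SE with the block (adjusted p = 0.00797). Exons of Fdft1 overlap those of Ctsb, a cathepsin gene on the opposite strand with 2684143 counts against 3437 for Fdft1, over 18.8% of the exon bases of Fdft1. The strand setting of the counting is not known, so reads of this stretch cannot be told apart and the level of Fdft1 is uncertain.

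Sqle, squalene epoxidase, a rate-limiting oxygenase of the pathway, had 36.8, 34.4 and 47.1 CPM in conditioned-medium wells, against 34.5, 32.5 and 39.1 CPM in untreated wells. Replicates 1 and 2 of the groups overlapped, and replicate 3 was the highest well in each. The log2 fold change was 0.16 ± 0.115 SE (edgeR adjusted p = 0.355), and 0.15 ± 0.055 SE with the block (adjusted p = 0.0424). Lss, lanosterol synthase, averaged 21.5 ± 4.11 CPM in conditioned medium and 21.2 ± 2.44 CPM in untreated wells, with a log2 fold change of 0.02 and a 95% interval of -0.28 to 0.32.

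The 8 genes of the late steps, which trim and saturate the sterol ring, were not called without the block either, and their median log2 fold change was 0.07. Nsdhl, a sterol dehydrogenase that works with Msmo1 to remove methyl groups, had 18.7, 19.4 and 23.0 CPM in conditioned-medium wells, against 16.3, 15.9 and 21.3 CPM in untreated wells. Untreated replicate 3 lay inside the conditioned-medium range. The log2 fold change was 0.19 ± 0.122 SE (edgeR adjusted p = 0.290), and 0.20 ± 0.0683 SE with the block (adjusted p = 0.0365). Hsd17b7, a sterol keto-reductase, had 9.55, 8.93 and 11.0 CPM in conditioned-medium wells, against 7.19, 7.06 and 9.82 CPM in untreated wells. Its log2 fold change came to 0.29 ± 0.145 SE without the block (adjusted p = 0.172) and 0.30 ± 0.0984 SE with it (adjusted p = 0.0268). Again untreated replicate 3 was the well that overlapped. Without it both genes were called in the fit without the block, at log2 fold changes of 0.34 for Nsdhl (adjusted p = 0.0396) and 0.47 for Hsd17b7 (adjusted p = 0.0243). That fit kept conditioned-medium replicate 3, the highest conditioned-medium well for both genes, without its pair. Within pairs the log2 ratios were 0.19, 0.29 and 0.11 for Nsdhl and 0.41, 0.34 and 0.17 for Hsd17b7.

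Dhcr7, the reductase of the last step of one branch to cholesterol, ran the other way. Dhcr7 had 30.2, 32.0 and 33.0 CPM in conditioned-medium wells, against 37.0, 31.8 and 39.1 CPM in untreated wells. Untreated replicate 2 lay within the conditioned-medium range and the other 2 untreated wells lay above it. The log2 fold change was -0.18 ± 0.0771 SE (edgeR adjusted p = 0.115), and -0.18 ± 0.0624 SE with the block (adjusted p = 0.0366). Without untreated replicate 2 it was -0.26 and Dhcr7 was called (adjusted p = 0.0251).

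The other 5 late genes were not called in either fit. Cyp51, lanosterol demethylase, averaged 55.9 ± 7.47 CPM in conditioned medium and 52.5 ± 6.50 CPM in untreated wells. Msmo1, the methylsterol monooxygenase, averaged 79.9 ± 9.09 CPM in conditioned medium and 76.8 ± 6.69 CPM in untreated wells. Both had their highest level in the well numbered 3 of each group. Tm7sf2, a sterol reductase, averaged 11.0 ± 1.56 CPM in conditioned medium and 9.36 ± 1.15 CPM in untreated wells, and shares 12.1% of its exon bases with Vps51 on the same strand. Ebp, the sterol isomerase, stayed within 52.0 to 53.8 CPM in conditioned medium and 49.7 to 52.0 CPM in untreated wells, and Sc5d, lathosterol oxidase, within 37.6 to 39.8 CPM in conditioned medium and 36.8 to 41.9 CPM in untreated wells. Ebp is among the 6 genes whose wells did not overlap, with a 95% interval of -0.04 to 0.15 for its log2 fold change, and the interval of Sc5d was -0.16 to 0.11.

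**Figure D2:**
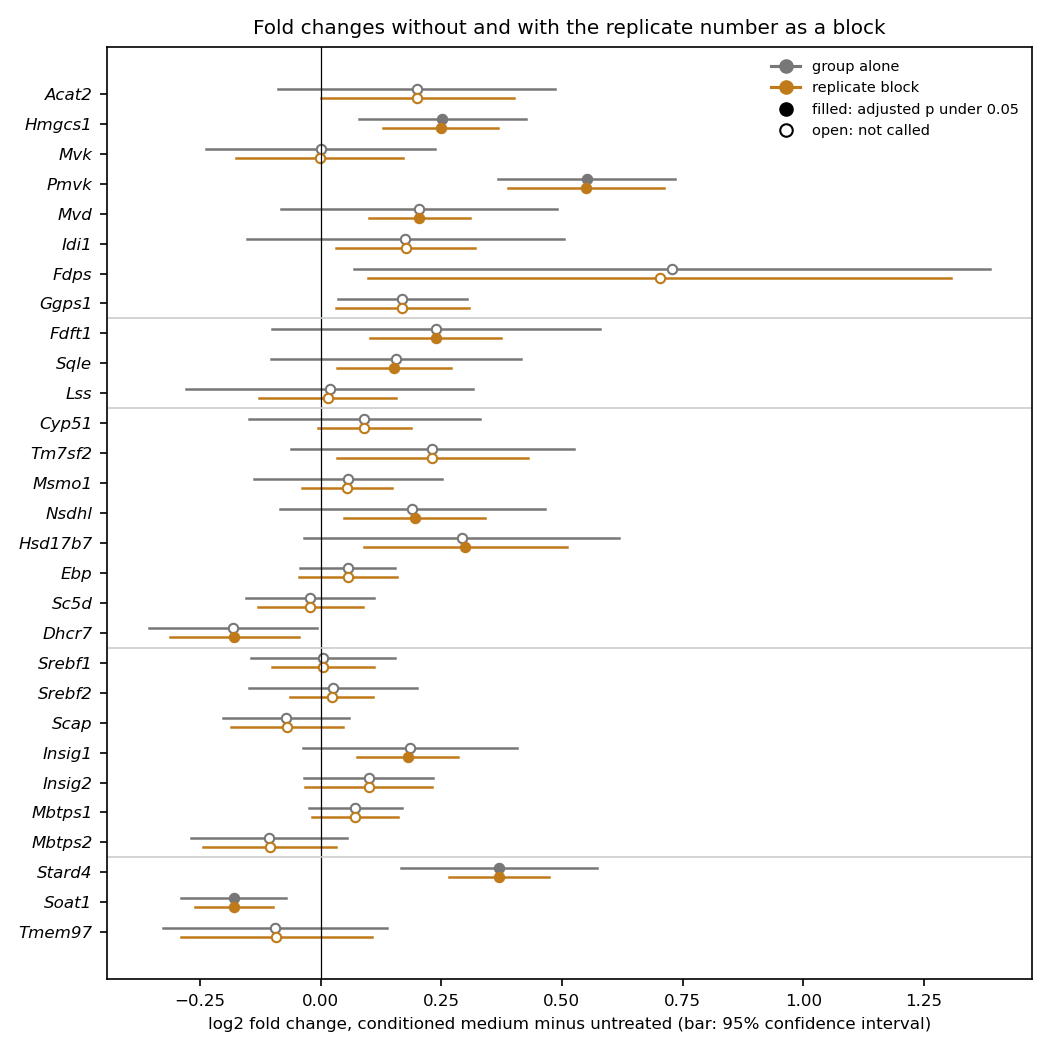
Log2 fold change of each of the 29 genes, conditioned medium minus untreated, with 95% confidence intervals, from the fit on the group alone (grey) and the fit with the replicate number as a block (orange); filled points passed an adjusted p of 0.05. Points of the 2 fits lie almost on each other, while the orange bars of most enzymes are shorter, so that 11 orange points are filled against 4 grey ones.

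The genes that sense sterol and release SREBP were not called without the block. Srebf2 encodes SREBP-2, the factor most tied to cholesterol synthesis. Srebf2 had 159, 161 and 190 CPM in conditioned-medium wells, against 156, 166 and 180 CPM in untreated wells. Its groups overlapped, at a log2 fold change of 0.03 with a 95% interval of -0.15 to 0.20. Srebf1, which encodes the SREBP-1 forms that favour fatty acid genes, had 74.0, 75.1 and 85.4 CPM in conditioned-medium wells, against 72.8, 81.9 and 78.8 CPM in untreated wells, with an interval of -0.14 to 0.16. These intervals concern the transcripts, and the cleavage that makes SREBP active was not measured.

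Insig1, an SREBP target whose protein holds SCAP back, had 77.4, 77.3 and 98.7 CPM in conditioned-medium wells, against 68.1, 74.3 and 80.3 CPM in untreated wells. The well numbered 3 was again the highest in each group, and each conditioned-medium well lay above the untreated well of its number. The log2 fold change was 0.19 ± 0.0986 SE (edgeR adjusted p = 0.202), and 0.18 ± 0.049 SE with the block (adjusted p = 0.0091). Without conditioned-medium replicate 3, in the fit without the block, it was 0.06 (adjusted p = 0.582). That fit kept untreated replicate 3, the highest untreated well, without its pair. Insig2, its paralog that is not driven by SREBP in the same way, had 25.8, 27.5 and 25.1 CPM in conditioned-medium wells, against 23.9, 24.1 and 25.2 CPM in untreated wells (adjusted p = 0.251).

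Scap, the escort protein, had 41.1, 41.8 and 41.3 CPM in conditioned-medium wells, against 44.0, 40.2 and 46.3 CPM in untreated wells. Mbtps1, the protease of the first cut, had 84.7, 89.9 and 88.7 CPM in conditioned-medium wells, against 82.5, 82.9 and 85.0 CPM in untreated wells. Mbtps2, the protease of the second cut, had 35.4, 36.7 and 39.9 CPM in conditioned-medium wells, against 44.2, 37.8 and 38.7 CPM in untreated wells. None of the 3 was called in either fit, the groups overlapped in each, and their log2 fold changes were -0.07, 0.07 and -0.11. Mbtps2 shares 28.4% of its exon bases with Yy2, a gene nested in it on the same strand.

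The transport and storage genes moved in opposite directions. Stard4 (ENSMUSG00000024378, chr18:33199355-33213862, minus strand) encodes a soluble carrier of cholesterol between membranes and is an SREBP target. Stard4 had 48.7, 46.6 and 57.0 CPM in conditioned-medium wells, against 36.8, 37.2 and 43.7 CPM in untreated wells. The groups did not overlap, and replicate 3 was the highest well of each. The level rose 1.29-fold (log2 fold change 0.37 ± 0.0897 SE, edgeR adjusted p = 0.0135), with log2 ratios of 0.40, 0.32 and 0.38 within pairs. With the replicate block its adjusted p was 2.14e-05. In fits without the block, its adjusted p was 0.057 without untreated replicate 1 and 0.0632 without untreated replicate 2.

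Soat1 (ENSMUSG00000026600, chr1:156424525-156474331, minus strand) encodes the enzyme that esterifies cholesterol for storage in lipid droplets. Soat1 had 448, 443 and 416 CPM in conditioned-medium wells, against 512, 492 and 475 CPM in untreated wells. Every conditioned-medium well lay below every untreated well, and replicate 3 was the lowest of each group. The level was 1.13-fold lower (log2 fold change -0.18 ± 0.0483 SE, edgeR adjusted p = 0.0217), with log2 ratios of -0.19, -0.15 and -0.19 within pairs. With the replicate block its adjusted p was 0.00156. In fits without the block, it was 0.0813 and 0.0699 with untreated replicate 1 or 2 left out. It was 0.0525 and 0.0543 with conditioned-medium replicate 1 or 3 left out, and 0.0952 when libraries were scaled by their totals alone. Tmem97, a sterol-regulated membrane protein that binds the lysosomal cholesterol exporter NPC1 in human cells, had 20.9, 19.4 and 23.2 CPM in conditioned-medium wells, against 23.7, 24.9 and 19.3 CPM in untreated wells. Its pairs disagreed in direction, with log2 ratios of -0.18, -0.35 and 0.27, and it was not called in either fit. Without both wells numbered 3, a setting chosen after the data were seen, Tmem97 was called lower at a log2 fold change of -0.27 (adjusted p = 0.023).

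Sterol enzyme levels also differed between the wells of a group. The 19 enzyme genes summed to 555, 558 and 660 CPM in conditioned-medium wells, against 509, 524 and 594 CPM in untreated wells. Replicate 3 was the highest of each group, and untreated replicate 3 stood above the conditioned-medium wells numbered 1 and 2. Of the 19 genes, 17 were highest in conditioned-medium replicate 3 among the 3 conditioned-medium wells (89.5%), against 37.3% of all tested genes. In the untreated wells, 14 were highest in replicate 3 (73.7%), against 37.9% of all tested genes, and 13 were highest there in both groups (68.4%), against 19.1%. The median log2 ratio of replicate 3 to the mean of replicates 1 and 2 was 0.29 in conditioned medium and 0.20 in untreated wells for the enzymes. The median log2 fold change of the same enzymes between the groups was 0.18.

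**Figure D3:**
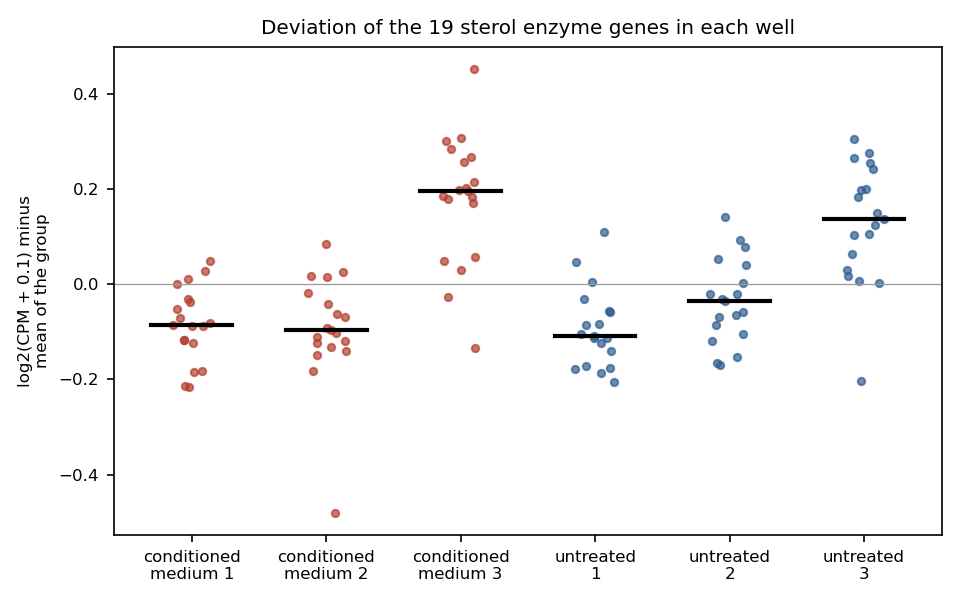
Deviation of each of the 19 sterol enzyme genes from its group mean, in log2(CPM + 0.1), for each well; points are genes and black lines their medians. The medians are -0.09, -0.10 and 0.20 in conditioned-medium wells 1 to 3 and -0.11, -0.03 and 0.14 in untreated wells 1 to 3.

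By arm, 7 of 8 mevalonate genes, 3 of 3 squalene and lanosterol genes and 7 of 8 late genes were highest in conditioned-medium replicate 3, and 4 of 8, 3 of 3 and 7 of 8 were highest in untreated replicate 3. No test compared the arms. The mevalonate arm summed to 196, 194 and 233 CPM in conditioned-medium wells, against 163, 176 and 190 CPM in untreated wells, and the groups did not overlap. That separation rested on Hmgcs1, the largest part of these sums. With Hmgcs1 left out of the sums, untreated replicate 3 lay above the conditioned-medium wells 1 and 2. The groups overlapped in 4 of the 8 genes of the arm. The squalene and lanosterol genes summed to 75.2, 74.6 and 101 CPM in conditioned-medium wells, against 70.7, 70.4 and 86.1 CPM in untreated wells. The late genes summed to 284, 290 and 326 CPM in conditioned-medium wells, against 276, 277 and 318 CPM in untreated wells. In both of the later arms, untreated replicate 3 lay above the conditioned-medium wells 1 and 2. Of the SREBP machinery, 2 of 7 genes (28.6%) were highest in replicate 3 of both groups, Srebf2 and Insig1. The share of all tested genes was 19.1%. Among 18 tested fatty acid genes known as SREBP-1 targets, 10 were (55.6%). In the other lists taken up below, the share was 41.7% for sterol transport and 40% for degradation in the endoplasmic reticulum. It was 28.6% for other sterol and oxysterol enzymes, 15.4% for the prenyl branches and 14.3% for LXR and efflux.

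Other values moved with the wells as well. Fibroblast markers summed to 88.4, 32.3 and 28.8 CPM in conditioned-medium wells, against 64.4, 14.9 and 30.1 CPM in untreated wells, highest in replicate 1 of each group. Of the 5 tested, 0 were called without the block and 3 were higher with it, where 17% of all tested genes were higher. Of the 5 tested mast cell and basophil markers and the 7 markers of dividing cells, 0 were highest in replicate 3 of either group. The count was also 0 for the tested markers of dendritic cells (4), fibroblasts (5), endothelial cells (3) and epithelial cells (1). Of all tested genes, 37.3% were highest in conditioned-medium replicate 3 and 37.9% in untreated replicate 3. Of the 7 macrophage markers 3 (42.9%) and of the 8 neutrophil markers 3 (37.5%) were highest in replicate 3 of both groups, against 19.1% of all tested genes. The part of these cells in the sterol pattern was not tested. Without both wells numbered 3, 6 members were higher: Hmgcs1, Pmvk, Mvd, Nsdhl, Hsd17b7 and Stard4, and Soat1 and Tmem97 were lower. These are 20.7% and 6.90% of the members, against 13.3% of all genes tested that were higher and 15.8% that were lower, and 27.6% of the members against 29.1% of all genes in either direction.

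Other genes that use or handle the products of the pathway gave counts of their own. Their 78 genes stand in 6 lists, of which 72 genes were tested, with 15 higher (20.8%) and 9 lower (12.5%), against 12.6% and 15.2% of all tested genes. With the block, 19 were higher (26.4%) and 12 lower (16.7%), against 17% and 19.3% of all tested genes. The same shares of all tested genes stand beside the counts of each list below. Among 13 tested genes of the prenyl branches, which lead from farnesyl diphosphate to prenylated proteins, dolichol and ubiquinone, 3 rose and 0 fell, with a median log2 fold change of -0.01. Icmt, which methylates prenylated proteins, averaged 65.3 ± 3.09 CPM in conditioned medium and 52.3 ± 4.86 CPM in untreated wells (log2 fold change 0.32, edgeR adjusted p = 0.00762). Nus1, a subunit of the enzyme that builds dolichol, rose by 0.28 on the log2 scale (adjusted p = 0.00108), and Rabggta, a subunit of the Rab prenyltransferase, by 0.23 (adjusted p = 0.0329).

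Of 15 genes tied to the degradation of sterol-regulated proteins in the endoplasmic reticulum, 1 rose and 1 fell. Rnf145, a ubiquitin ligase of that membrane, had 99.3, 97.5 and 105 CPM in conditioned-medium wells, against 77.4, 81.7 and 85.4 CPM in untreated wells (log2 fold change 0.31, edgeR adjusted p = 0.00199). Syvn1, another ligase, fell by 0.18 on the log2 scale (adjusted p = 0.0407). The block added Vcp, an ATPase that extracts membrane proteins, to the lower genes.

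Of 7 tested genes for other sterol and oxysterol enzymes, 3 rose and 1 fell. Lbr, a nuclear membrane protein with sterol reductase activity, had 47.5, 46.6 and 48.0 CPM in conditioned-medium wells, against 32.4, 34.5 and 33.3 CPM in untreated wells. Its wells were tight and far apart, and the log2 fold change was 0.50 ± 0.0472 SE (edgeR adjusted p = 6.61e-05). Cyp27a1, which makes an oxysterol, rose by 0.31 on the log2 scale (adjusted p = 0.00138), and Nceh1, a hydrolase of cholesterol esters, fell by 0.25 (adjusted p = 0.018).

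Of 12 sterol transport genes, 2 rose and 5 fell. The lysosomal acid lipase gene Lipa, whose product frees cholesterol from engulfed esters, had 1017, 1072 and 908 CPM in conditioned-medium wells, against 1867, 1873 and 1762 CPM in untreated wells (log2 fold change -0.88, edgeR adjusted p = 1.66e-05). Lrp1, an endocytic receptor for lipoproteins, fell by 0.65 on the log2 scale (adjusted p = 3.16e-05). Gramd1b, a carrier that moves plasma membrane cholesterol to the endoplasmic reticulum, rose by 0.51 (adjusted p = 0.000104). With the block 5 rose and 5 fell.

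Of 7 genes of the LXR factors, which sense oxysterols, and of efflux, 2 rose and 2 fell. Nr1h3, which encodes LXR-alpha, had 35.8, 44.8 and 28.4 CPM in conditioned-medium wells, against 102, 112 and 72.3 CPM in untreated wells (log2 fold change -1.39, edgeR adjusted p = 0.000468). Its replicate 3 was the lowest well of each group. Abcg1, a sterol exporter, fell by 0.95 on the log2 scale (adjusted p = 5.87e-07), while Abca1, another exporter, rose by 0.56 (adjusted p = 0.000115). With the block 2 rose and 4 fell. Of the 18 tested fatty acid genes 4 rose and 0 fell, and with the block 5 rose, adding Elovl6 (adjusted p = 0.0272, 0.0603 without it). The 4 were Scd2 (log2 fold change 0.65), Lpin1 (0.43), Fads1 (0.31) and Acsl3 (0.28), and the median log2 fold change of the 18 genes was 0.05.

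Per exon length, the members ranged widely. In RPKM, CPM per kilobase of exon, Soat1 was the highest, at 44.5 ± 1.75 in conditioned medium and 50.4 ± 1.88 in untreated wells (SD, n = 3 each). Mvd, Insig1, Srebf2 and Ebp followed. Mvd averaged 28.3 ± 4.57 RPKM in conditioned medium and 24.6 ± 3.80 RPKM in untreated wells, Insig1 27.3 ± 3.99 RPKM in conditioned medium and 24.0 ± 1.98 RPKM in untreated wells. Srebf2 averaged 23.7 ± 2.38 RPKM in conditioned medium and 23.3 ± 1.70 RPKM in untreated wells, and Ebp 22.9 ± 0.406 RPKM in conditioned medium and 22.0 ± 0.500 RPKM in untreated wells. Hsd17b7, Lss and Fdps were the lowest, and Fdps, with 240 counts over all libraries, averaged 0.427 ± 0.142 RPKM in conditioned medium and 0.257 ± 0.0331 RPKM in untreated wells.

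**Figure D4:**
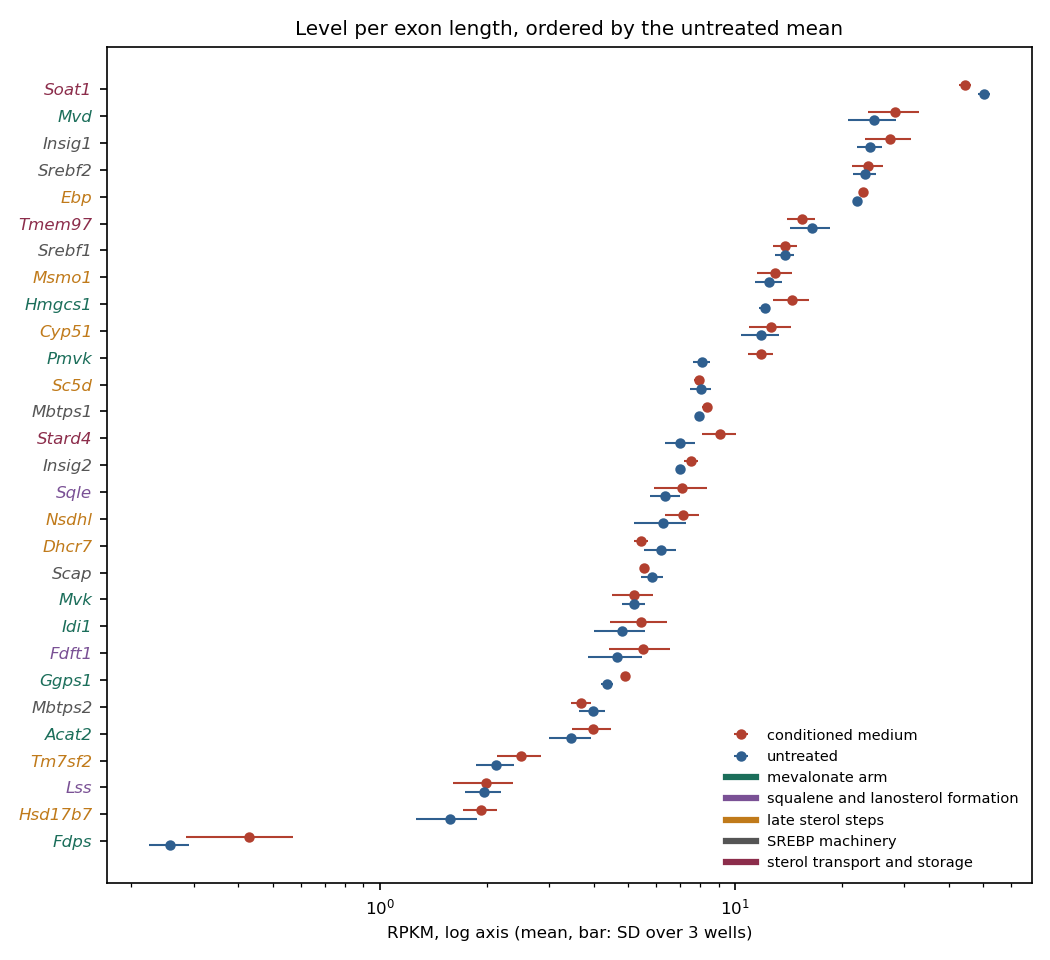
Mean RPKM of the 29 genes on a log axis, conditioned medium in red and untreated in blue, with bars for the SD over 3 wells, ordered by the untreated mean. Soat1 tops the order at 44.5 and 50.4 RPKM and Fdps ends it at 0.427 and 0.257 RPKM, and for most genes the bars of the groups overlap.

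Some of these counts can hold reads of other genes, or lack reads that fit several genes. Transcripts of Acat2 share 39.1% of their words of 50 bases with other genes, chiefly Acat3 and Tcp1, those of Mbtps2 28.9%, of Fdft1 26.5%, of Fdps 26.2%, of Idi1 25.3%, of Tmem97 20.8% and of Hmgcs1 11.6%. Those of Pmvk, Mvd, Nsdhl, Hsd17b7, Ebp, Insig2 and Stard4 share 0% with other genes, and those of Soat1 0.719%. How reads that fit several genes were counted is not given in the sources used here.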

How the data were processed

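Messenger RNA of 6 wells was sequenced. What the authors deposited is 1 table of raw counts, whole numbers for each gene and library. HISAT2, featureCounts and the build GRCm38 are named in the submitters' processing notes, per the labels. Not given in the sources used here are tool versions, annotation release, strand setting and how reads with several hits were treated. Symbols came from GENCODE M21 by identifier. Coordinates and exon lengths are those of the deposited table. Wells were grouped by the treatment in their labels.

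The counts were filtered with filterByExpr, scaled by TMM and tested with the quasi-likelihood method of edgeR 4.0.16 (limma 3.58.1, R 4.3.3) in a design with the group alone. Benjamini-Hochberg adjustment ran over all 13853 tested genes, and genes with an adjusted p under 0.05 were called. Every fold change is conditioned medium over untreated, and each SE comes from the F statistic. A count of 0 allows up to 3 counts, for counting error only. The test was also run on simulated data. Chi-square per degree of freedom between libraries of a group was 3.89 to 15.0, so none was a copy of another.

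Replicate numbers 1 to 3 occur in both groups without a stated meaning. Over genes, deviations from the group means correlated at 0.328, 0.161 and 0.309 between equal numbers and at -0.289 to 0.0112 between unequal ones. The numbers were therefore taken as pairs, from the data and not from the labels, and the block is given where it changes the call of a member or a list's count. The block is also given for Fdps, Hmgcs1, Stard4 and Soat1. Fits with a library left out had no block. Each left the well of the same number in the other group without its pair. Deviations within a group sum to 0, so positive values for equal numbers push the others down.

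Other settings were RLE scaling, scaling by the total alone, no filter, a minimum mean of 1 CPM, DESeq2 1.42.0, limma-voom, the replicate block and each library left out. The members and lists were chosen with earlier results of these data known. Named genes are all members and, of each other list, up to 3 called genes with the largest changes. Nceh1, Acsl3, Vcp, Elovl6 and the markers named fall outside this rule and were chosen after their values were seen. A gene that this rule names is not reported here.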

Additional observations from a re-analysis of the deposited data

How the results depend on the processing

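Of 406 member fold changes over 14 alternatives, 352 kept their direction and their side of the threshold and 25 changed sign, all for uncalled genes. RLE scaling, a mean of at least 1 CPM, DESeq2 and limma-voom called 3 members higher and 1 lower, as without them, and no count filter 4 and 1, adding Insig1. No scaling beyond the total count called 5 higher and 0 lower, adding Ggps1 and Mbtps1 and losing Soat1, with a median member log2 fold change of 0.158 against 0.10, while the median of all genes moved by a like amount to 0.07 against 0.01 and the calls over all genes to 2656 higher and 1710 lower, against 1749 and 2112. The replicate block called 9 higher and 2 lower, 7 of the enzymes higher against 2, and changed no other member's call. Without both libraries numbered 3, chosen after the data were seen, 6 were higher and 2 lower, 5 of the enzymes higher. Leaving out each library in turn gave 1 to 4 higher, 0 to 1 lower, 1 to 3 enzymes higher and a median of 0.0564 to 0.171. With 1 mismatch allowed, TCACNCCAC was found for 10 promoters, 40% against 29.2% of tested genes. For Mvk the log2 fold change was -0.00543 with RLE, -0.000108 at 1 CPM, -0.00155 with the block, -0.0517 without both libraries numbered 3, -0.00359 with DESeq2 and -0.00861 with limma-voom. For Srebf1 it was -1.32e-06 with RLE and for Sc5d 0.0360 with no scaling. Without both libraries numbered 3 it was -0.0489 for Lss, 0.00723 for Sc5d, -0.0528 for Srebf1 and -0.00313 for Srebf2. With each library left out it ran over -0.110 to 0.0675 for Mvk, -0.150 to 0.117 for Lss, -0.0260 to 0.198 for Cyp51, -0.0431 to 0.129 for Msmo1, -0.0659 to 0.0319 for Sc5d, -0.0644 to 0.0426 for Srebf1 and -0.0629 to 0.0827 for Srebf2. The cause of these sign changes was not tested. Counts over all genes (2725 to 5023) and over the other lists stayed within 1.5 times. With 3 wells a group, the 95% intervals of the 25 uncalled members lie between -0.36 (Dhcr7) and 1.39 (Fdps) on the log2 scale.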
